A study of Mus musculus with 5 samples.

Results

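The vascular growth factors of the VEGF family, their receptors and the angiopoietins were compared between eye tumors and normal uvea of the mouse. The 10 genes are Vegfa, Vegfb, Vegfc and Pgf (ligands), Flt1, Kdr and Flt4 (receptor kinases), Nrp1 (a co-receptor), and Angpt1 and Angpt2 (ligands of the receptor kinase Tek). They were chosen by name as a signalling family, and each name was looked up among the gene names of the deposited loci. All 10 were found, at 10 of 24768 loci. The tumors (3 libraries) were of the genotype AAV5-Cre;Lats1/2 fl/fl: adult animals whose Lats1 and Lats2 genes, kinases of the Hippo pathway, are floxed, injected with an adeno-associated virus that carries Cre recombinase. The normal tissue (2 libraries) was uvea, the vascular and pigmented layer of iris, ciliary body and choroid, of adult wild-type mice, for which the labels name no virus. The labels give no strain, no promoter for the Cre and no number of animals in a library, so the spread behind each p-value is that between libraries and may in part be technical.

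VEGF ligands are secreted proteins that bind receptor kinases on endothelial cells. VEGFA acts mainly through the kinase KDR. The related kinase FLT1 binds VEGFA tightly but signals weakly, and its shortened soluble form traps ligand. PGF and VEGFB bind FLT1 but not KDR, and VEGFC binds FLT4, the main growth receptor of lymphatic vessels. In the eye, VEGFA from the retinal pigment epithelium sustains the capillaries of the choroid. The angiopoietins act on vessels that have already formed: ANGPT1 activates TEK and keeps vessels quiet and tight, and ANGPT2, released by endothelial cells, can block that signal and loosens vessels for remodelling.

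The libraries held 12687703 to 14368272 estimated fragments each. Defining markers of several cell types were checked. Of 11 retinal pigment epithelium markers, 10 lie at a locus of their own, and these summed to 15.3, 84.2 and 14.0 FPKM in tumor libraries 1, 2 and 3 and to 15261 and 15298 FPKM in wild-type uvea. The other marker, Rdh5, shares its locus with Bloc1s1, a gene of a lysosome-related organelle complex, and the locus was at 228, 176 and 213 FPKM in the tumors, against 2602 and 2365 FPKM in wild type. Photoreceptor markers (7 genes) summed to 1.40 to 5.01 FPKM in the tumors against 1099 and 1195 FPKM in wild type. Pigment cell markers (8 genes, among them Tyr and Pmel) summed to 8.88 to 30.4 FPKM in tumors that the series title calls melanoma, against 6743 and 6523 FPKM in wild type. FPKM is the number of fragments per kilobase of transcript and per unit of sequencing depth, so levels of different genes can be set side by side. Macrophage markers (10 genes) summed to 3154 to 7437 FPKM in the tumors against 538 and 500 FPKM in wild type. That sum includes a locus that C1qb shares with C1qc. The 9 markers at loci of their own summed to 1984, 1506 and 3389 FPKM in the tumors, against 301 and 288 FPKM in wild type. Skeletal muscle markers (9 genes) reached 8812 FPKM in tumor library 1, against 524 and 539 FPKM in the other tumors and 663 and 636 FPKM in wild type. Without the locus that Myh1 shares with Myh3, the sums were 8466, 482 and 520 FPKM in the tumors and 650 and 622 FPKM in wild type. In bulk tissue, fewer cells of a type and less RNA per cell cannot be told apart.

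Of the 10 genes, 5 fell in the tumors (Vegfa, Vegfb with its shared locus, Pgf, Flt1 and Angpt1), 2 rose (Vegfc and Nrp1) and 3 did not pass the test (Kdr, Flt4 and Angpt2). All 10 passed the filter on low counts. A change means an adjusted p under 0.05 in edgeR's quasi-likelihood test with Benjamini-Hochberg adjustment over all tested loci, which also gave every adjusted p with no tool beside it. Of 15241 tested loci, 34.1% were called in that fit, 18.7% as higher and 15.4% as lower in tumors. The median log2 fold change of the 10 genes was −0.63, against 0.048 over all tested loci. Tumor and wild-type libraries did not overlap in FPKM at 8 of the 10 genes, and they did not overlap at 69.5% of all tested loci, with tumors higher at 33.7% and lower at 35.9%.

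**Figure D1:**
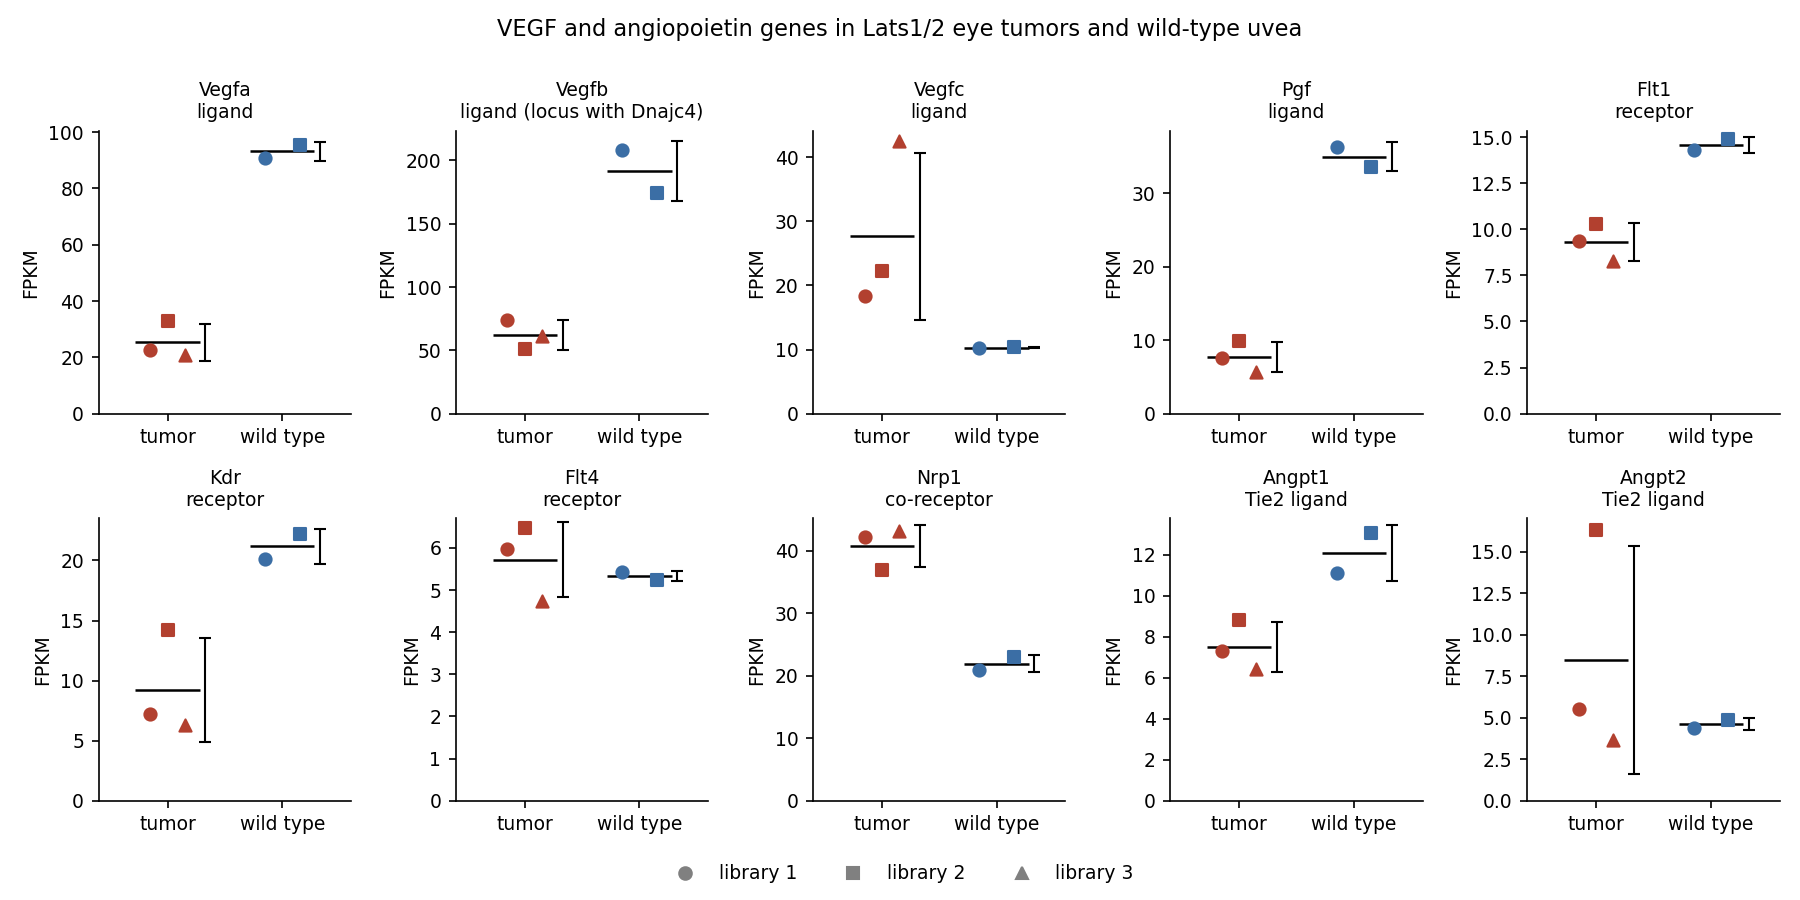
FPKM of the 10 genes in the 3 tumor libraries (red, left) and the 2 wild-type libraries (blue, right), with the mean as a line and the SD as an error bar. Library symbols only name libraries within a group. Vegfa, Vegfb, Pgf, Flt1, Kdr and Angpt1 lie lower in every tumor library, Vegfc and Nrp1 lie higher in every tumor library, and Flt4 and Angpt2 overlap between the groups.

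Vegfa had the highest level of the genes counted at a locus of their own in wild-type uvea and fell in the tumors. The gene lies on chromosome 17 from 46016993 to 46032369 (mm10, minus strand, protein-coding, with up to 8 exons). FPKM values were 22.5, 32.8 and 20.7 in tumor libraries 1, 2 and 3, against 90.8 and 95.5 in wild-type libraries 1 and 2. Every tumor library lay far below both wild-type libraries, and tumor library 2 was the highest of the tumors. The means were 25.3 ± 6.54 FPKM in tumors (SD, n = 3) and 93.2 ± 3.32 FPKM in wild type (SD, n = 2). On the log2 scale the fold change was −1.85 (SE 0.25, edgeR adjusted p = 0.0097). The wild-type mean was 3.68 times the tumor mean. Among tested loci, the level of Vegfa stood at percentile 76.8 in tumors and 93.5 in wild type. The pigment epithelium markers moved in the same direction: 10 of the 11 fell (the shared Rdh5 locus among them) and 0 rose, with a median log2 fold change of −7.29. Among the tumors, library 2 was highest in Vegfa and in the summed pigment epithelium markers at loci of their own, and their part in the Vegfa difference was not tested.

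The next sequences are the 250 bases before the RefSeq start of Vegfa, of its relative Vegfb and of Vegfc (GRCm38.p6, the build mm10), shown for a ligand gene that fell, for the gene whose locus is shared with a neighbor, and for the ligand gene that rose. Capitals mark the GC box GGGCGG or its reverse complement CCGCCC, a binding motif of SP1-type factors.
Vegfa, chr17:46032378-46032627, minus strand: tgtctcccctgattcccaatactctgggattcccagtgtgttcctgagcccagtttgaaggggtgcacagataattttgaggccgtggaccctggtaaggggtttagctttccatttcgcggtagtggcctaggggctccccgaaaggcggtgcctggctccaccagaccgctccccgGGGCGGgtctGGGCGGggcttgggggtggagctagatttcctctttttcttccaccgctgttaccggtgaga
Vegfb, chr19:6987652-6987901, minus strand: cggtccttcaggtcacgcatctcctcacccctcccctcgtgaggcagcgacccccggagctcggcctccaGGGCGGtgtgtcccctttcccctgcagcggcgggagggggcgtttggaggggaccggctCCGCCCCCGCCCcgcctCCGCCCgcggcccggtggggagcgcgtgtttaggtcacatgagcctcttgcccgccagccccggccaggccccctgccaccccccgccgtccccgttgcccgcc
Vegfc, chr8:54077282-54077531, plus strand: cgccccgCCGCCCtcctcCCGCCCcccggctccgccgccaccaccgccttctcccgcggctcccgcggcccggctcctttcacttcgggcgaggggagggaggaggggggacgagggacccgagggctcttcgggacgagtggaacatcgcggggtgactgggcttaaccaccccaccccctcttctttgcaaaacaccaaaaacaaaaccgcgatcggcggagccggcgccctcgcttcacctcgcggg
RefSeq's table held 10 such windows for 8 of the 10 genes, with none for Angpt1 or Angpt2. The windows had 59.2% to 76.4% G and C, against a median of 52.4% over all 32851 windows of that length. A GC box stood in 9 of the 10 windows, on either strand, and in 32.7% of all windows. The core of the hypoxia response motif (ACGTG, or CACGT on the other strand) stood in 1 window, that of an internal start of Vegfa, and in 16.6% of all windows. Of the 250 bases of that Vegfa window, 218 lie in exons of Vegfa itself. The windows of Pgf and Flt4 lie with all 250 bases in exons of their own gene, so part of the matches counted here stand in exon sequence. The TEAD motif GGAATG (or CATTCC) stood in 0 of the 10 windows and in 12.6% of all windows. A match describes letters and shows no binding, and other stretches were not searched.

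Pgf, which encodes placental growth factor, had the most negative log2 fold change of the 10 genes. It lies on chromosome 12 from 85166635 to 85177790 (minus strand, up to 7 exons). Its level was 7.58, 9.84 and 5.66 FPKM in the tumors, against 36.3 and 33.5 FPKM in wild type. The groups were far apart, and tumor library 2 was again the highest tumor. The log2 fold change was −2.14 (SE 0.27, adjusted p = 0.0088), with a wild-type mean 4.54 times the tumor mean. Set against Vegfa within each library, Pgf stood at 0.337, 0.300 and 0.274 of the Vegfa level in the tumors and at 0.400 and 0.351 of it in wild type.

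Vegfb was counted together with its neighbor Dnajc4, a gene of the DNAJ co-chaperone family, as 1 locus. Vegfb lies on chromosome 19 from 6982473 to 6987651 on the minus strand. Dnajc4 lies on the same strand from 6987911 to 6992572, with 259 bases between the genes. Dnajc4 thus ends before the start of Vegfb, and the Vegfb window printed above fills most of the space between them. The genes share 0 of the 1605 exonic bases of Vegfb, but the deposited value of the locus does not divide its fragments between them. The locus was at 74.3, 51.1 and 61.4 FPKM in the tumors, against 208 and 175 FPKM in wild type. It was the highest of the 10 in both groups and fell by 1.71 on the log2 scale (SE 0.19, adjusted p = 0.0072). How much of this level or this fall belongs to Vegfb cannot be told apart from Dnajc4.

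Vegfc was the only ligand gene of the 4 that rose. It lies on chromosome 8 from 54077606 to 54187096 (plus strand, up to 7 exons). Tumor libraries 1, 2 and 3 had 18.3, 22.2 and 42.5 FPKM, against 10.3 and 10.3 FPKM in wild type. Every tumor library lay above both wild-type libraries, and tumor library 3 stood at 2.32 times the lowest tumor. The log2 fold change was 1.47 (SE 0.41), and its adjusted p of 0.049 lay close to the threshold. The call ended without tumor library 2 (adjusted p = 0.051), without a filter on low counts (adjusted p = 0.056) and in 4 fits with limma (adjusted p = 0.052 to 0.067), whereas DESeq2 gave 1.44 (adjusted p = 0.0070). Macrophage markers rose at 7 of 10 genes and fell at 0 (median log2 fold change 3.48), and they were also highest in tumor library 3. Their part in the Vegfc level was not tested.

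The mix of ligand transcripts differed between tumors and wild type. With the Vegfb locus left aside, Vegfc made up 37.9%, 34.2% and 61.7% of the summed FPKM of Vegfa, Vegfc and Pgf in the tumors, against 7.50% and 7.42% in wild type. Vegfa made up 46.5%, 50.6% and 30.1% in the tumors, against 66.1% and 68.5% in wild type. Vegfc thus exceeded Vegfa in tumor library 3, at 2.05 times its level, and stood at 0.815 and 0.676 of it in tumor libraries 1 and 2, against 0.113 and 0.108 of it in wild type. The summed level of these 3 genes was 48.4, 64.9 and 68.9 FPKM in the tumors, against 137 and 139 FPKM in wild type. These ratios are descriptions and were not tested.

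**Figure D2:**
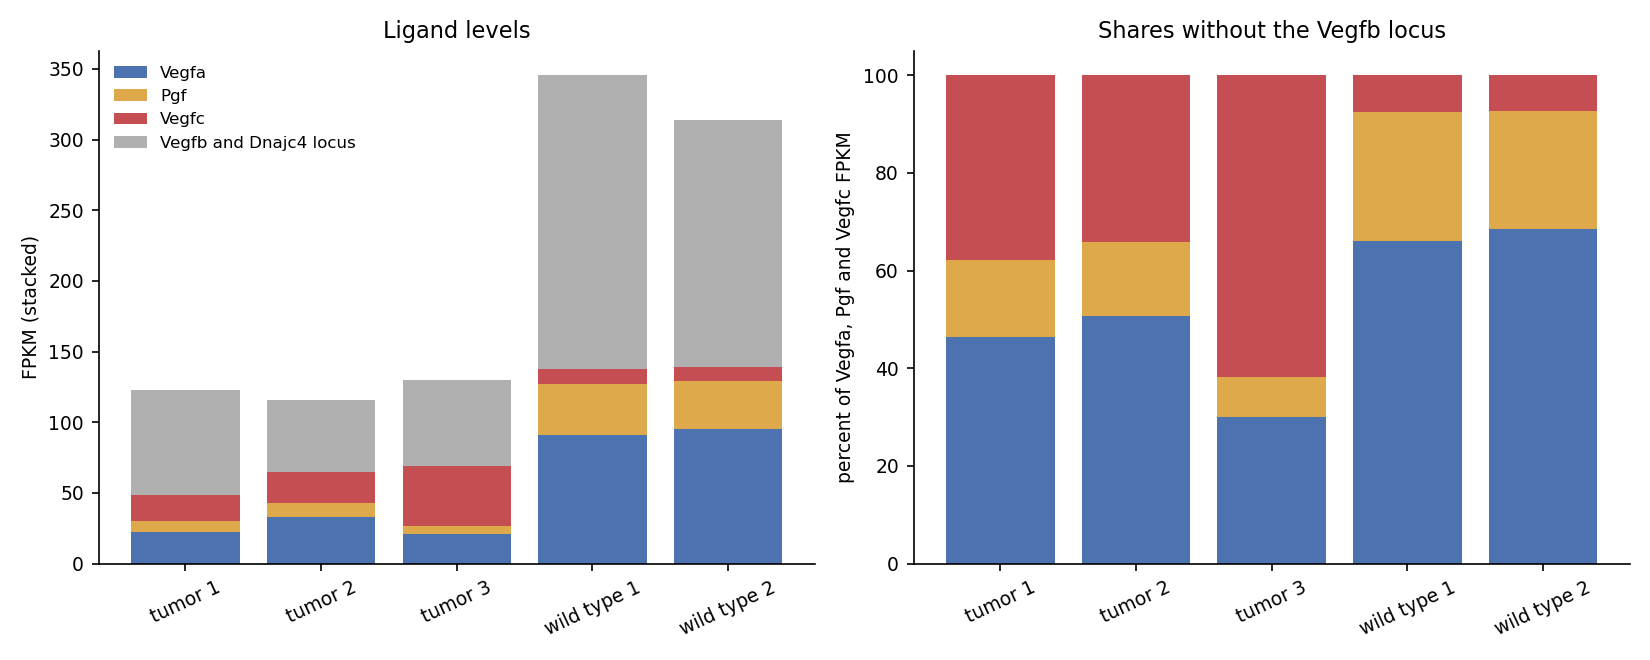
Left, FPKM of Vegfa, Pgf, Vegfc and the locus of Vegfb and Dnajc4, stacked for each library. Right, the shares of Vegfa, Pgf and Vegfc in their own sum, in percent. Tumor libraries stand left of the wild-type libraries, and the Vegfc share is 34.2% to 61.7% in tumors against 7.50% and 7.42% in wild type.

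Of the receptor kinase genes, Flt1 passed the test, and Kdr and Flt4 did not. Flt1, the gene of the ligand-trapping receptor VEGFR1, was lower in the tumors. Its place is chromosome 5 from 147561604 to 147726011 (minus strand, up to 30 exons). It was at 9.37, 10.3 and 8.26 FPKM in the tumors, against 14.3 and 14.9 FPKM in wild type. The tumor libraries were close to each other and all lower than wild type. The log2 fold change was −0.59 (SE 0.15, adjusted p = 0.038). The call ended with library size alone as scaling (adjusted p = 0.093) and without tumor library 1 (adjusted p = 0.065). The deposited value covers the whole locus and does not separate the soluble form from the membrane receptor.

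Kdr, the gene of the main signalling receptor VEGFR2, was lower in every tumor but did not pass the test. It lies on the same chromosome, from 75932827 to 75978458 (minus strand, up to 30 exons). Its level was 7.19, 14.2 and 6.33 FPKM in tumor libraries 1, 2 and 3, against 20.1 and 22.2 FPKM in wild type. Tumor library 2 stood above the other tumors and was still below both wild-type libraries. The log2 fold change was −1.12 (SE 0.38, adjusted p = 0.078). Without tumor library 2 it was −1.59 and passed (adjusted p = 0.0086), as it did in DESeq2 over all 5 libraries (−1.15, adjusted p = 0.025).

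Flt4, the gene of the VEGFC receptor VEGFR3, showed levels within the same range in both groups. It lies on chromosome 11 from 49609263 to 49652739 (plus strand, up to 30 exons, as many as Flt1 and Kdr). It was at 5.97, 6.47 and 4.73 FPKM in the tumors, against 5.42 and 5.25 FPKM in wild type. The wild-type values lay between those of the tumors, and the log2 fold change was 0.15 (SE 0.18, adjusted p = 0.55). Of 6 lymphatic endothelial markers tested, 0 rose and 1 fell, Stab2 (a scavenger receptor gene), at −1.98 (adjusted p = 0.020) and at most 0.576 FPKM in any library. By sign alone, 2 of the 6 log2 fold changes were positive and 4 negative. Lyve1 did not pass but was higher in every tumor library, at 13.1, 4.45 and 3.15 FPKM, against 0.929 and 1.34 FPKM in wild type (2.66, adjusted p = 0.053).

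Nrp1 rose in the tumors and varied least between them of the 10 genes. Its product neuropilin binds VEGFA and semaphorins and strengthens KDR signalling. The gene lies on chromosome 8 from 128358604 to 128503363 (plus strand, up to 17 exons), and its locus also carries the name of the microRNA gene Mir1903, which lies inside it. The locus was at 42.2, 36.9 and 43.1 FPKM in the tumors, against 20.9 and 22.9 FPKM in wild type. The groups were clearly apart, with an SD of log2 CPM of 0.12 among tumors, against a median of 0.34 over all tested loci. The log2 fold change was 0.94 (SE 0.17, adjusted p = 0.017).

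Receptor genes, which endothelial cells carry, were also set against blood endothelial markers of the same library. Of 19 such markers, 1 rose, 3 fell and 15 did not pass, with a median log2 fold change of −0.24. The marker that rose was Ecscr, an endothelial surface gene, by 2.29 (adjusted p = 0.0043). Emcn, an endothelial sialomucin gene, fell by 1.55 (adjusted p = 0.020) and so did Vwf, the von Willebrand factor gene (−1.92, adjusted p = 0.033). The median log2 CPM of the 19 markers was 5.41, 4.72 and 4.23 in tumor libraries 1, 2 and 3, against 5.50 and 5.39 in wild type. By this log2 CPM median, tumor library 1 held about as much of these markers as wild type, and tumor library 3 the least.

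Log2 CPM is not divided by gene length, so these offsets depend on the lengths of the markers. On this scale Flt1 lay above the marker median by 0.54, 1.35 and 1.52 log2 units in the tumors. In wild type it lay above the median by 0.99 and 1.15, so its groups overlapped. Kdr lay above the marker median by 0.02, 1.64 and 0.96 in the tumors, and by 1.30 and 1.55 in wild type, which overlapped as well. Flt4 stood at −0.26, 0.54 and 0.57 in the tumors, higher than the −0.54 and −0.49 of wild type. Nrp1 stood at 2.58, 3.07 and 3.77 in the tumors, higher than the 1.42 and 1.65 of wild type. In the FPKM of each library, Nrp1 was 5.86, 2.60 and 6.81 times the level of Kdr in the tumors, against 1.04 and 1.03 times in wild type. Summed macrophage marker FPKM, higher in every tumor library than in wild type, moved in the same direction as Nrp1, and the part of macrophages in its level was not tested.

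**Figure D3:**
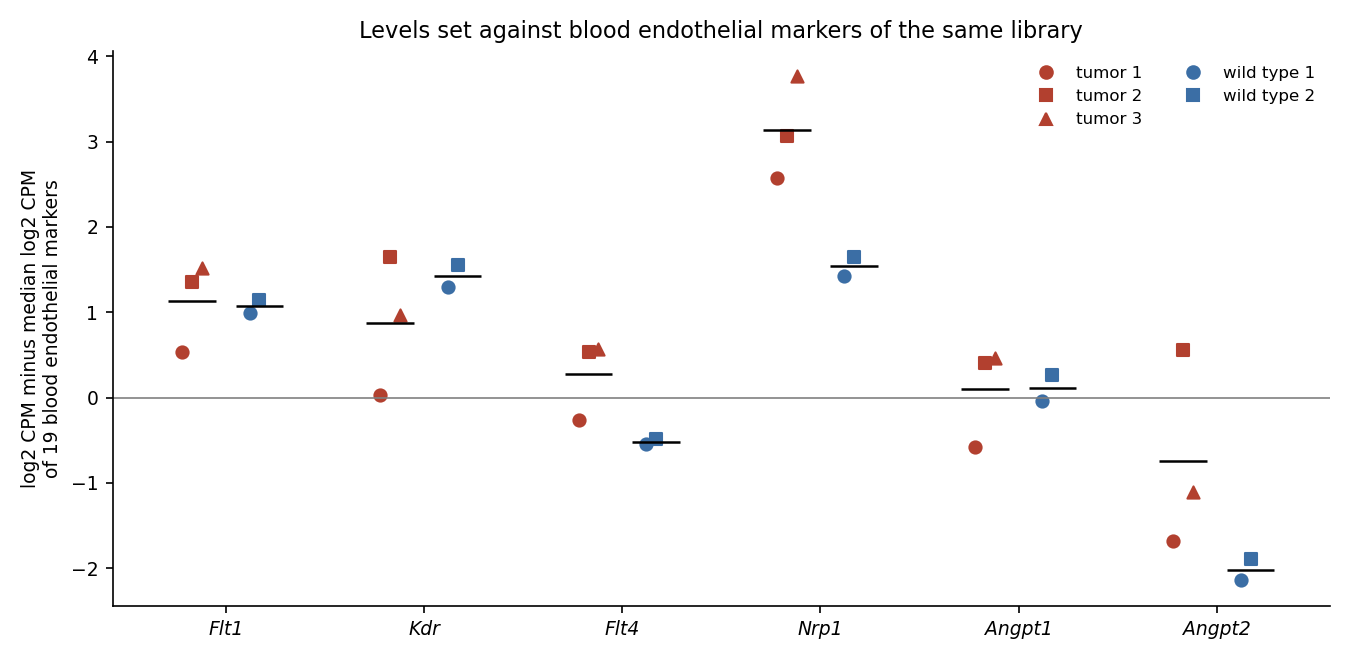
Log2 CPM of the receptor and angiopoietin genes minus the median log2 CPM of 19 blood endothelial markers in the same library, with tumors in red on the left of each pair, wild type in blue on the right, and group means as lines. Flt4, Nrp1 and Angpt2 lie higher in every tumor library than in wild type on this scale, and Flt1, Kdr and Angpt1 overlap. The scale is not divided by gene length. By FPKM, Flt1 and Kdr lay below the middle of the 19 markers in every tumor library and above it in both wild-type libraries.

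The angiopoietins differed from each other. Angpt1 fell in the tumors and codes for the vessel-stabilizing ligand that mural cells make. The gene is on chromosome 15 from 42424723 to 42676977 (minus strand, up to 9 exons). It was at 7.28, 8.81 and 6.41 FPKM in the tumors, against 11.1 and 13.04 FPKM in wild type. The groups did not overlap, and the log2 fold change was −0.67 (SE 0.18, adjusted p = 0.044). The call was close to the threshold and held in 4 of 14 settings, this fit included. It ended without a filter on low counts (adjusted p = 0.051), with library size alone (adjusted p = 0.096), and when tumor library 1 was left out (adjusted p = 0.091), as well as tumor library 3 (adjusted p = 0.063). Of 10 mural cell markers, 0 rose and 2 fell, with a median of −0.05. Those were Myh11, the smooth muscle myosin gene (−2.17, adjusted p = 0.035), and Kcnj8, a pericyte potassium channel gene (−0.84, adjusted p = 0.039). By sign alone, 5 of the 10 log2 fold changes were positive and 5 negative. Pdgfrb, Mcam and Des did not pass but were higher in every tumor library, by 2.11, 1.74 and 2.77 (adjusted p = 0.060, 0.052 and 0.12).

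Angpt2, the gene of the ligand that can oppose ANGPT1, varied most between tumors of the 10 genes. It lies on chromosome 8 from 18690263 to 18741562 on the minus strand, within the span of Mcph1 on the plus strand. The deposited locus that carries the name Angpt2 is wider, from 18595173 to 18803188. That is close to the full span of Mcph1, from 18595131 to 18803189. FPKM values were 5.51, 16.3 and 3.63 in tumor libraries 1, 2 and 3, against 4.39 and 4.88 in wild type. Tumor library 2 stood high, and tumor library 3 was below wild type. Its fold change on the log2 scale, 0.92 (SE 0.71), missed the threshold (adjusted p = 0.35), and without tumor library 2 it was 0.002 (adjusted p = 0.996). The genes share 0 of the 3690 exonic bases of Angpt2, and Mcph1 itself was at 1.26, 1.63 and 1.98 FPKM in the tumors, against 0.707 and 0.527 FPKM in wild type. Angpt2 stood at 0.756, 1.85 and 0.567 of the Angpt1 level in the tumors and at 0.395 and 0.374 of it in wild type, so this ratio was higher in every tumor library.

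Tumor library 2, the tumor highest in Vegfa, Pgf, Flt1, Kdr, Flt4, Angpt1 and Angpt2, also differed in its markers. Its Muller glia markers (6 genes of the retina's supporting glia) summed to 397 FPKM, against 151 and 144 FPKM in tumor libraries 1 and 3. In wild type they summed to 3263 and 3373 FPKM. Glul, Dkk3 and Rlbp1 made up most of each sum. Aqp4 and Slc1a3 overlapped between the groups. Aqp4 was at 1.01, 4.81 and 0.0775 FPKM in the tumors, against 3.15 and 3.45 FPKM in wild type. Slc1a3 was at 3.33, 12.5 and 1.67 FPKM in the tumors, against 9.88 and 10.1 FPKM in wild type. Of the 6, 1 rose (the potassium channel gene Kcnj10, by 2.54, adjusted p = 0.029) and 3 fell, with a median of −1.80. Rlbp1, a retinoid-binding protein gene, stands in both this list and that of the pigment epithelium, with 0.980, 29.9 and 0.793 FPKM in the tumors, against 1699 and 1756 FPKM in wild type. The median log2 CPM of the 11 pigment epithelium markers was 0.63, 3.38 and 0.56 in tumor libraries 1, 2 and 3, against 10.31 and 10.37 in wild type. That of the 8 pigment cell markers was 0.91, 2.30 and 0.76 in the tumors, against 8.82 and 8.84 in wild type. By these sums and medians, tumor library 2 was the highest tumor in all 3 lists and far below wild type in each. The part of these cell types in the levels of tumor library 2 was not tested.

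The other pathway genes moved in both directions. Of 18, 5 rose, 3 fell and 10 did not pass, with a median log2 fold change of 0.17. The receptor kinase genes of the angiopoietin arm did not pass: Tek, the angiopoietin receptor gene, was at 14.5, 9.69 and 9.86 FPKM in the tumors, against 9.79 and 10.9 FPKM in wild type (adjusted p = 0.57). Its partner Tie1 was at 21.2, 12.3 and 10.1 FPKM in the tumors, against 30.2 and 28.5 FPKM in wild type (adjusted p = 0.089). Nrp2, the neuropilin that binds VEGFC, was at 8.81, 24.6 and 27.0 FPKM in the tumors, against 18.2 and 19.1 FPKM in wild type (adjusted p = 0.82). These genes are named for their roles, after their values were seen.

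Ccbe1, a secreted protein gene needed for VEGFC to be cut into its active form, fell to 0.444, 1.09 and 0.379 FPKM in the tumors, against 5.17 and 6.02 FPKM in wild type. Its log2 fold change was −3.08 (SE 0.52, adjusted p = 0.016), opposite in sign to that of Vegfc. Svep1, a large matrix protein gene of vessel development, rose by 1.22 (adjusted p = 0.022). Plcg1, the phospholipase gene that activated KDR recruits, fell by 0.99 (adjusted p = 0.016), with 11.2 to 14.5 FPKM in tumors, against 26.9 and 27.5 FPKM in wild type. Sh2d2a, the gene of an adaptor that binds KDR and is best known from T cells, rose by 4.42 (adjusted p = 0.018). It had 0.558 to 1.82 FPKM in tumors and 0.0656 and 0.0354 FPKM in wild type. The wild-type values rest on 4 and 2 fragments, so the size of this rise is uncertain.

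**Figure D4:**
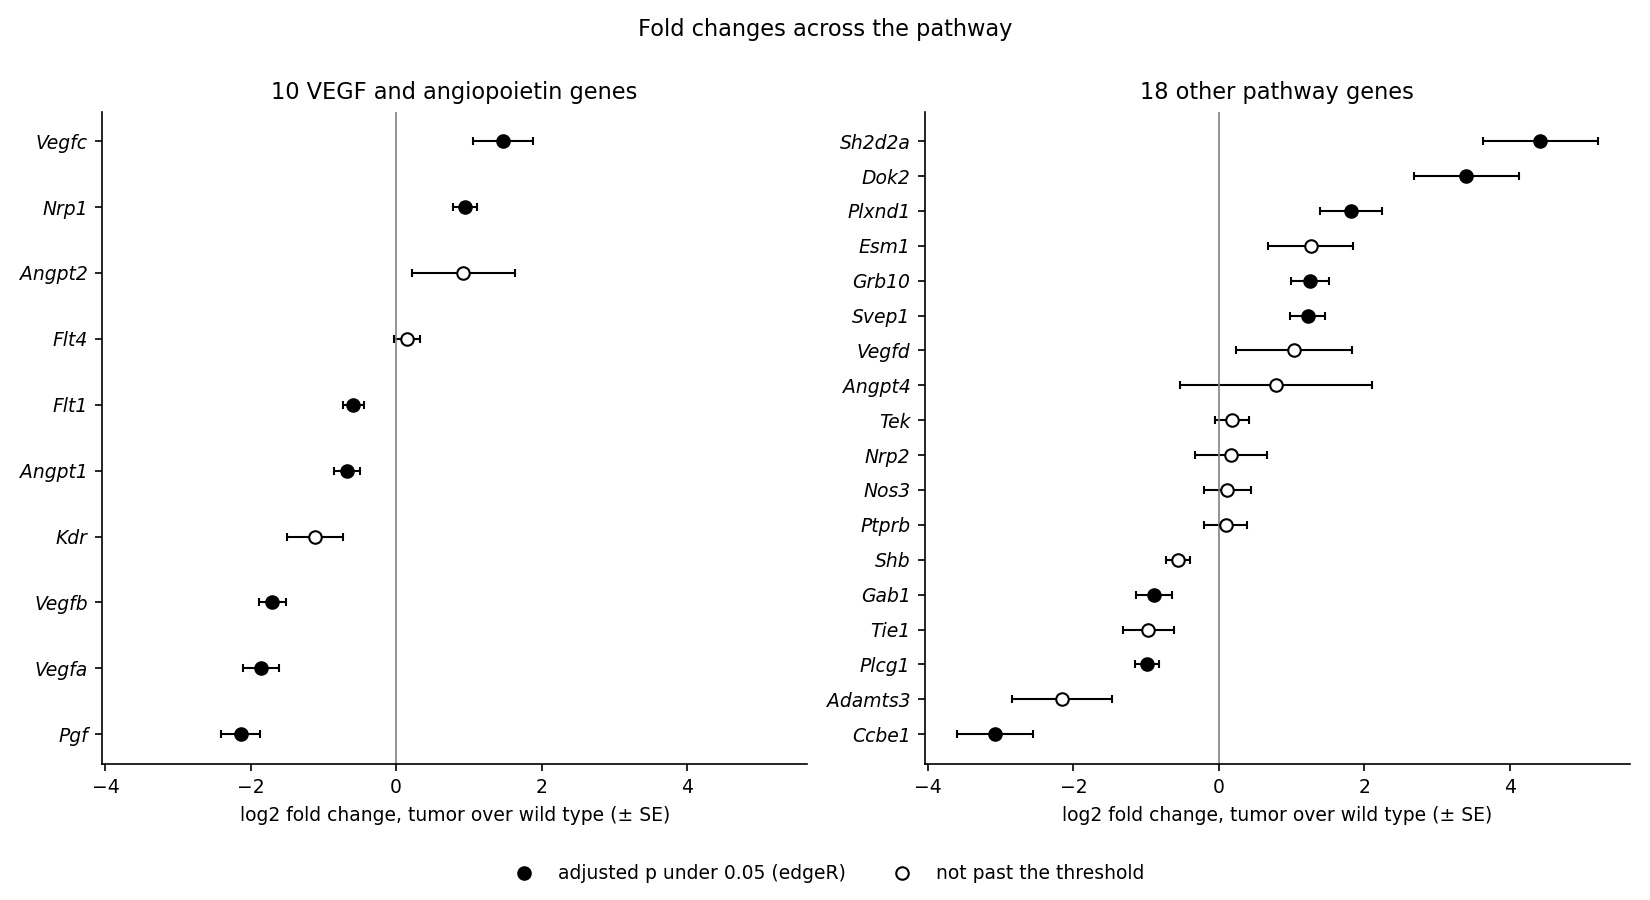
Log2 fold changes of tumor over wild type with their SE for the 10 genes (left) and for 18 other pathway genes (right). Filled points passed an adjusted p under 0.05 in edgeR. Among the 10 genes, values run from −2.14 for Pgf to 1.47 for Vegfc.

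Vegfa is a classical target of the hypoxia-inducible factors, so their genes and targets were looked at beside it. Of 8 genes of these factors and their regulators, 0 rose and 3 fell, and 7 had a negative log2 fold change. Epas1, which encodes HIF-2 alpha, was at 20.5, 38.1 and 17.6 FPKM in the tumors, against 161 and 171 FPKM in wild type. It fell by 2.66 (SE 0.39, adjusted p = 0.012), and like Vegfa it was highest among tumors in library 2. Hif1a, which encodes the HIF-1 alpha subunit, fell by 0.92 (adjusted p = 0.045). Of 14 hypoxia response targets, 11 had a positive log2 fold change and 3 a negative one, with a median of 0.95 against 0.048 over all tested loci. Of these, 4 rose, 3 fell and 7 did not pass. P4ha1, a collagen hydroxylase gene, rose by 1.69 (adjusted p = 0.0055) and Ankrd37 by 2.06 (adjusted p = 0.015). Slc2a1, the glucose transporter gene, fell by 4.23 (adjusted p = 0.022), and Pdk1, a gene of a kinase that limits pyruvate entry into mitochondria, by 1.07 (adjusted p = 0.029).

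The order of levels among the 10 genes differed between tumors and wild type. In tumors the Vegfb locus came first, above Nrp1 without overlap. Nrp1, Vegfc and Vegfa followed, each overlapping the next, and below Vegfa without overlap came Flt1, Kdr, Angpt2, Pgf, Angpt1 and Flt4, with means of 9.31 down to 5.72 FPKM and each overlapping the next. In wild type the order was the Vegfb locus, Vegfa, Pgf, Nrp1, Kdr, Flt1, Angpt1, Vegfc, Flt4 and Angpt2, and Nrp1 and Kdr were the only neighbors that overlapped. Vegfc was the third in tumors and the eighth in wild type, and Pgf was the eighth in tumors and the third in wild type.

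Genes with the most similar profile were searched among the 6841 loci whose mean reached 10 FPKM, by the distance between log2(FPKM + 1) values over the 5 libraries, each profile centred on its mean. The nearest to Vegfa were Angptl2 (distance 0.127), Cltb (0.153) and Fryl (0.156). The nearest to Kdr were Sema3f (0.180), Micall1 (0.210) and Mtss1l (0.267). The nearest to Angpt2 were Ptk7 (0.237), Cdh2 (0.360) and Agrn (0.377), each highest in tumor library 2. Ptk7, for example, was at 8.02, 23.9 and 6.30 FPKM in the tumors, against 8.17 and 8.33 FPKM in wild type. The 5 libraries are the only points behind each distance.

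Other tools and settings were read against their own background. DESeq2 called 24.2% of loci higher and 21.5% lower in tumors, and 2 and 6 of the 10 genes. Scaling by library size alone called 20.2% higher and 13.4% lower, and 2 and 3 of the 10 genes, and the fit without a filter called 13.5% and 11.6%, and 1 and 4 of the 10 genes. Limma voom called 16.3% higher and 18.8% lower, with 1 and 5 of the 10 genes. In the limma-trend fits, log2(FPKM + 1) called 17.4% higher and 19.6% lower, log2(FPKM + 0.1) called 18.1% and 17.9%, and log2(FPKM + 1) without a filter called 13% and 16.5%, each with 1 and 4 of the 10 genes. A fit with the replicate numbers as a replicate block called 11.2% and 8.93%, with 1 and 3 of the 10 genes. Without tumor library 1, 15.9% were higher and 13.7% lower (2 and 3 of the 10 genes), without tumor library 2, 20.1% and 20.7% (1 and 6), and without tumor library 3, 18.7% and 16.6% (2 and 4). Without either wild-type library 0% of loci were called by edgeR, with unadjusted p under 0.05 at 1 rise and 4 falls among the 10 genes without library 1, and 1 rise and 3 falls without library 2.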

How the data were processed

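RNA from 3 tumor and 2 wild-type samples was sequenced from Illumina TruSeq libraries after Trizol extraction, per the labels' protocols. TopHat2 2.0.9, Cufflinks 2.2.1, Cuffdiff and mm10 are named in the submitters' processing notes; which annotation, read filters and strand setting were used is not given in the sources used here, so antisense reads cannot be told apart. The authors deposited, per replicate, an estimated count of fragments before scaling (96.8% to 97.1% whole numbers) and an FPKM after scaling, as the file headers name them. The authors' group FPKM were used only for a check against replicate means, and they agreed within 0.001% for the 10 genes. The table numbers replicates from 0 and the labels from 1, so numbers only name libraries. Replicate pairs differed by more than sampling noise (chi-square per degree of freedom 5.43 in wild type, 102 to 129 in tumors).

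Counts were rounded. Loci without a name (1.52% to 4.37% of fragments) were left out. edgeR 4.0.16 (R 4.3.3) with filterByExpr (minimum count 10), TMM scaling and the quasi-likelihood F-test was used for tumor against wild type, with all 5 libraries and no covariates, and Benjamini-Hochberg adjustment over 15241 loci. The SE was taken from F, as the size of the log2 fold change over √F. Log2 CPM used a prior count of 2. Alternatives were DESeq2 1.42.0, limma 3.58.1 (voom, and trend on log2(FPKM + 1) or + 0.1), other scaling and filters, a replicate block, and each library left out. The fits were tested on simulated data with the same spread in both groups and with changes larger than those of Vegfc, Flt1 and Angpt1. The real groups differed in spread (median SD of log2 CPM 0.34 in tumors and 0.088 in wild type). The simulation therefore cannot speak for calls near the threshold. The 10 genes and the gene lists were chosen with earlier results of these data known. Besides the 10 genes, up to 2 changed genes per direction with the smallest p were eligible to be named from each list. Gene positions are from GENCODE M21 (GRCm38), promoter windows from RefSeq (GRCm38.p6), without the 50 bases after the start.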

Additional observations from a re-analysis of the deposited data

How the results depend on the processing

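All 10 genes kept the sign of their log2 fold change in all 13 alternatives. For Angpt2 (0.002 to 1.28) and Flt4 (0.023 to 0.27) the lowest value lay close to no change, and neither passed in any setting. Vegfa (−2.11 to −1.74), the Vegfb locus (−1.86 to −1.61) and Pgf (−2.39 to −1.97) passed in 12 of 14 settings, Nrp1 (0.83 to 0.97) in 11, Flt1 in 9, Vegfc (1.01 to 1.70) in 6, Angpt1 in 4 and Kdr in 2. The 2 called rises became 1 with limma voom, in the 3 limma-trend fits and without a filter, and the 5 falls became 3 with library size alone. Leaving out single libraries gave 0 to 2 rises and 0 to 6 falls among the 10 genes, and 0 to 3032 rises and 0 to 3112 falls over all loci, the 0 coming from either wild-type library, whose remaining partner is assumed to vary like the tumors (edgeR, unadjusted p under 0.05 at 2069 and 2006 rises and 2016 and 1990 falls). DESeq2 over all 5 libraries called 2 rises and 6 falls among the 10 genes. Over all loci, limma-trend without a filter gave 2429 rises and 3067 falls, against 2852 and 2349 in edgeR. With the table's replicate numbers as a replicate block, 1 of the 10 genes rose and 3 fell, and 1706 loci rose and 1361 fell; same-numbered libraries did not deviate together (correlation 0.013 and 0.027), so the numbers do not pair them. The cause of these changes was not tested. FPKM keeps no error of its own, and 2 wild-type libraries limit every p-value.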

Other observations

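Anti-angiogenic genes showed no common direction. Of 8 such genes, 1 rose and 0 fell, with a median log2 fold change of 0.024. The gene that rose was Vash1, which encodes vasohibin, a protein that endothelial cells make in response to VEGF. It was at 5.64, 7.74 and 5.60 FPKM in the tumors, against 1.57 and 1.68 FPKM in wild type, a log2 fold change of 2.02 (SE 0.22, edgeR adjusted p = 0.0071). Serpinf1, the gene of pigment epithelium-derived factor and named here with its values known, had 326, 320 and 254 FPKM in the tumors, against 249 and 264 FPKM in wild type, and did not pass (adjusted p = 0.32).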
